A study of Mus musculus with 16 samples.

Results

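The subject is a set of mouse miRNAs with high serial numbers, miR-680 to miR-721 without miR-708 and miR-1892 to miR-1971, which entered the miRNA registry through 2 rounds of sequence discovery. Members were chosen by the name the array file gives, with any letter, arm or star suffix, and by no measured value. The rule found 60 of the 611 mouse miRNAs on the array, 42 in the lower number range and 18 in the upper. They were measured in primary mouse embryonic fibroblasts (MEFs) of a mixed C57Bl/6 and FVB/n background, either wild type (WT) or without the Ercc1 gene (Ercc1-/-), whose product is part of a nuclease of DNA repair. Each genotype was grown in 20% O2, as in a standard incubator, or in 3% O2, and RNA was taken at passage 3 (P3) and passage 7 (P7). This gave 8 groups (WT and Ercc1-/- cells, at P3 and P7, in 20% and 3% O2) with 2 arrays each and no agent other than oxygen. The methods name 2 independent lines for each sample, the labels do not say which line an array came from, and replicate 1 of every group lay on slide 1 and replicate 2 on slide 2, so that line and slide cannot be told apart.

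A miRNA is cut from a hairpin precursor to a single strand of about the length of the sequences below, and pairs with messenger RNAs mainly through its seed, bases 2 to 8. Registry entries from large sequencing rounds can also turn out to be pieces of other abundant RNAs. MiR-720 is known as a fragment of a transfer RNA, and miR-712 as a product of the spacer of the ribosomal RNA precursor. An array probe for such an entry reports any RNA that binds it, and these files cannot separate a mature miRNA from a longer or shorter fragment.

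RefSeq (GRCm38.p6) held a mature sequence under the same name for 40 of the 60 members. Of the 16 members called higher at P7 in the averaged comparison below, on which the results turn, 12 had a sequence. These are shown 5′ to 3′ with the seed in capitals.
miR-1892: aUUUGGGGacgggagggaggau
miR-1894-3p: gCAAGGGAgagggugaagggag
miR-1896: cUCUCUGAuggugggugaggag
miR-705: gGUGGGAGguggggugggca
miR-1897-3p: uCAACUCGuucuguccggugag
miR-1895: cCCCCGAGgaggacgaggagga
miR-680: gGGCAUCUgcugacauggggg
miR-721: cAGUGCAAuuaaaagggggaa
miR-1904: gUUCUGCUccucuggagggagg
miR-1906: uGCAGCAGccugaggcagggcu
miR-697: aACAUCCUgguccuguggaga
miR-690: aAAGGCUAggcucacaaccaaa

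No 2 of the 40 sequences shared a seed, and none shared one with the other array miRNAs that could be matched, 162 in all with the members. Most of the 611 mouse miRNAs on the array had no matched sequence. A seed that miR-721 or any other member shares with one of those could not be seen, so no seed is shown to be unique. The sequences shown ran from 42.9% G and C in miR-721 to 75% in miR-705, where 70.0% of the bases were G. A run of at least 4 G or a G and C share over 60% occurred in 9 of the 14 tested members with a sequence and in 30.9% of the 162 matched miRNAs. A comparison of base composition between members and other miRNAs is void, because RefSeq gave a sequence for only 40 of 60 members and 41 of 214 other tested miRNAs. MiR-1892 lies on the minus strand at chr12:54645943-54645964, inside the span of Sptssa. MiR-1895 lies at chr3:134240515-134240536 inside that of Cxxc4, and miR-721 at chr5:136375777-136375797 inside that of Cux1, both on the minus strand. MiR-1906 has 2 loci, one at chr12:109544588-109544609 on the plus strand inside Meg3, the maternally expressed non-coding RNA of an imprinted cluster, and one at chrX:88759485-88759506 on the minus strand. MiR-680 has 3 loci, on chromosomes 6, 12 and X, so its signal belongs to none of them alone. Whether these positions are exonic or intronic was not looked up, since only gene spans were given.

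Signals are the processed signal of the scanner software, averaged over the probes of a miRNA, in its own linear units. A miRNA was taken as above background on an array when at least 0.5 of the spots of one of its probes were marked so. The array signal of an array is its average log2 signal across 52 miRNAs that are not members and passed background on every array. It ranged from 9.29 to 9.80 at P3 and from 7.86 to 9.28 at P7 on slide 1, and from 6.94 to 8.70 and from 5.54 to 7.91 on slide 2. Of 10 mesenchymal markers 8 were above background on all arrays, while none of 6 epithelial markers, and miR-122 of liver, was above it on any; of 4 blood markers miR-223 was above it on 9 arrays, miR-142-3p on 5, miR-142-5p on 1 and miR-451 on 0, and of the markers of neurons and muscle miR-128 on 6, miR-206 on 2 and the other 5 on none.

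Detection of the set moved with passage on one slide only. On slide 2 the members above background numbered 8, 12, 9 and 12 at P3 and 20, 22, 27 and 29 at P7, in the order WT in 20% O2, WT in 3% O2, Ercc1-/- in 20% O2 and Ercc1-/- in 3% O2, which every list of 4 below follows. On slide 1 they numbered 17, 18, 18 and 17 at P3 and 19, 18, 21 and 16 at P7. The other 551 mouse miRNAs went the other way on slide 2, with 124 to 192 above background at P3 and 90 to 156 at P7. On that slide 25 members were above background on more P7 than P3 arrays and 1 on fewer, whereas on slide 1 the numbers were 2 and 0. The 1 member with fewer was miR-1894-5p, above background only on both slide 2 arrays of P3 in 20% O2 and named here after its values were seen.

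**Figure D1:**
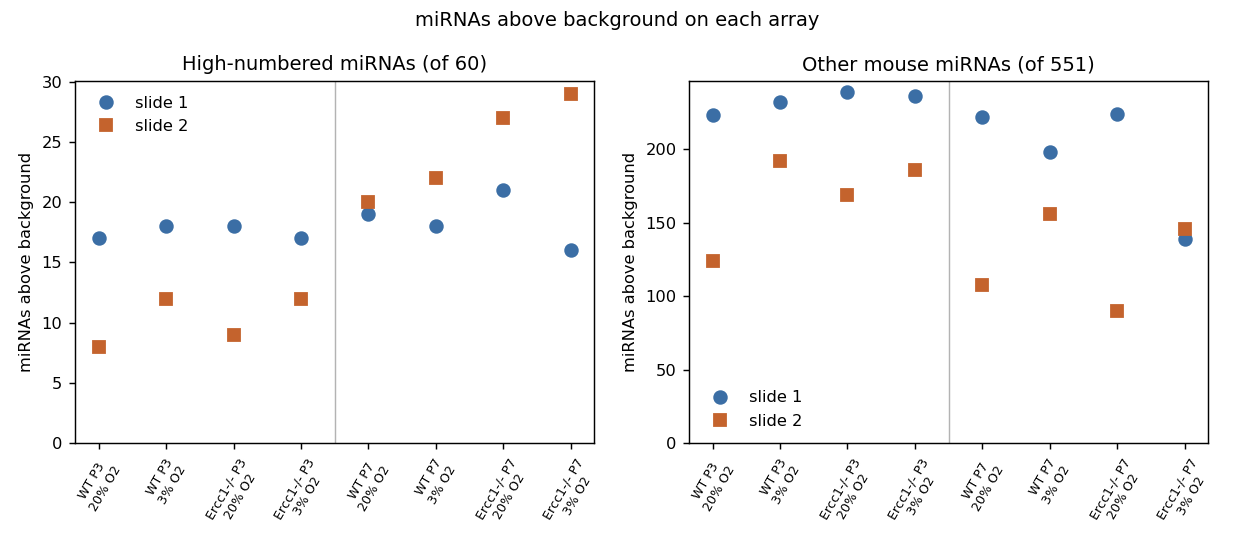
Number of miRNAs above background on each of the 16 arrays, for the 60 members (left) and the 551 other mouse miRNAs (right); circles are slide 1, squares slide 2, and the line parts P3 from P7. On slide 2 members rise from 8 to 12 at P3 to 20 to 29 at P7 while the other miRNAs fall to between 90 and 156.

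Of the 60 members 32 were above background on at least 1 array and 28 on none. Those on none were miR-683, miR-684, miR-686, miR-687, miR-688, miR-691, miR-692, miR-693-3p, miR-693-5p, miR-694, miR-695, miR-698, miR-699, miR-701, miR-703, miR-704, miR-707, miR-713, miR-717, miR-718, miR-719, miR-1893, miR-1898, miR-1899, miR-1900, miR-1902, miR-1903 and miR-1905. Of the 32, 21 passed background in both replicates of some group and were tested, 13 from the lower range and 8 from the upper. The 11 seen on some array but not tested were miR-682, miR-696, miR-700, miR-702, miR-710, miR-711, miR-712*, miR-715, miR-1894-5p, miR-1901 and miR-1907. Of the tested members 13 passed through at least 1 P3 group, and 8 passed through P7 groups alone (miR-1892, miR-1894-3p, miR-1896, miR-1897-3p, miR-681, miR-685, miR-705 and miR-706). Those 8 had to be higher at P7 to enter, so that counts over the tested members describe them and carry no test of the set. The 5 members above background on all 16 arrays were miR-720, miR-709, miR-1904, miR-689 and miR-690.

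Averaged over the 4 passage comparisons, limma called 16 of the 21 tested members higher at P7 and none lower. Each of the 16 rose on both slides once arrays were scaled to equal signal. Scaling gave every array the same mean log2 value across the 57 miRNAs that passed background on all of them, and a change is P7 minus P3 on that log2 scale, with 1 meaning a doubling. Over all 235 tested mouse miRNAs limma called 53 higher at P7 in this comparison, or 22.6%, against 16 of 21 members. Among the 16 were miR-1892, miR-1894-3p, miR-1896, miR-1897-3p and miR-705, which entered through P7 groups alone. The contrast of these shares is thus a description and no test of the set. All 8 tested members of the upper range and 8 of the 13 of the lower were among the 16. The median change over the tested members was 1.97 and that over all tested miRNAs -0.39, and with members not above background on any P3 array set at their bound it stayed 1.97. On slide 2 alone, 8 of the 21 had no P3 array above background and so only a bound there. On slide 1 the members' median was 0.72, beside -0.11 for all tested, and on slide 2 it was 3.07, beside -0.71, or 3.07 and -0.52 with such miRNAs at their bound. With the slide, which is the replicate number, as a block, limma called 18 members higher, against 27.7% of all tested.

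Without scaling the picture split by slide. The members' median was 0.07 on slide 1, where 13 of 21 were higher, and 1.93 on slide 2, where 20 of 21 were. All tested miRNAs together had unscaled medians of -0.77 and -1.35 on the slides. On slide 2, 17 of the 21 tested members had all 4 P7 arrays above all 4 P3 arrays in unscaled signal, against 15.3% of all tested, and 1, miR-720, had all 4 below. On slide 1 the same count was 0 members and 0% of all tested. With scaling it was 19 members on slide 2, against 27.2% of all tested, and 5 on slide 1, against 6.81%. In an unscaled fit limma called 1 member, miR-1896, against 2.55% of all tested. Positive control probes on slide 2 moved both ways between P3 and P7 in unscaled log2 signal. Of 5 kinds of such probe, 2 were higher at P7 in all 4 groups, by 0.19 to 0.67 and by 0.04 to 0.51, 1 was higher in 3 groups, and 2 were lower in all 4, by up to -3.77 and -2.58. Their part in the members' values was not tested. Negative controls averaged 1.80 to 2.23 at P3 and 0.937 to 1.68 at P7, in signal units.

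**Figure D2:**
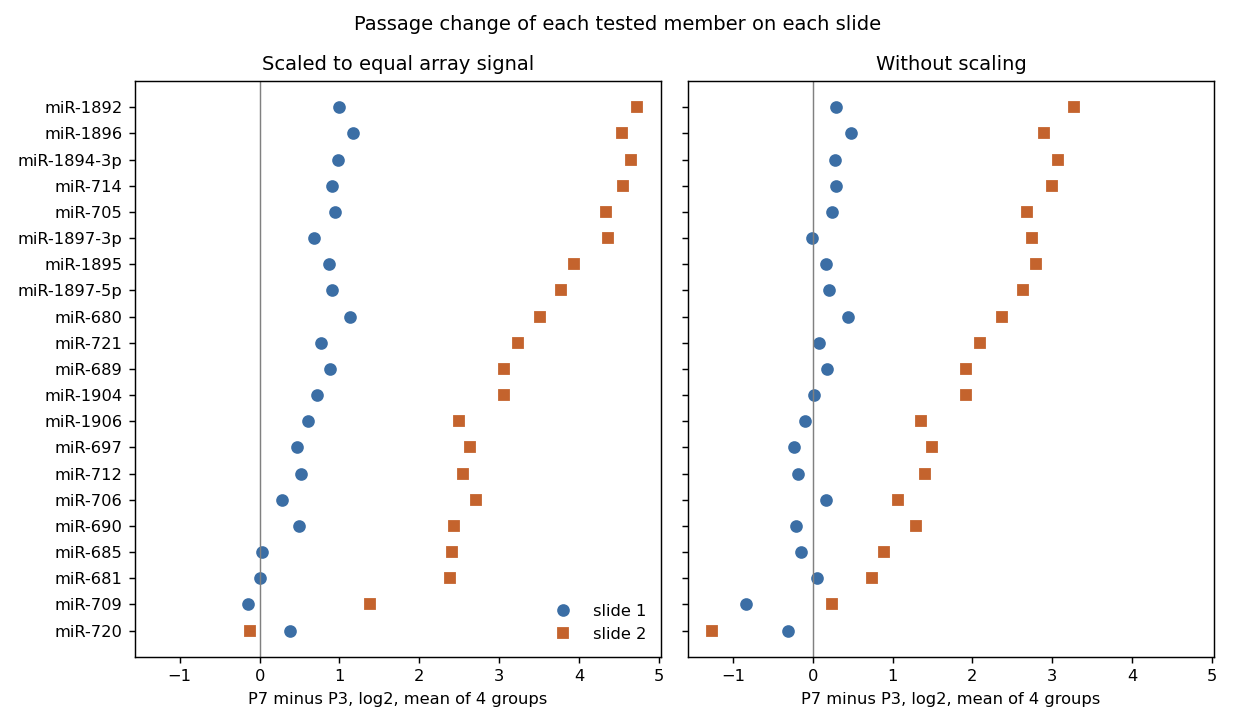
Averaged passage change, P7 minus P3 in log2, of each of the 21 tested members on slide 1 (circles) and slide 2 (squares), scaled to equal array signal (left) and unscaled (right). Without scaling slide 1 lies around 0 and slide 2 around 2, with miR-720 below 0 on both.

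Among the 5 members seen on every array, miR-720 and miR-709 stood apart from the rest. MiR-720, the transfer RNA fragment and the brightest member, had signals of 9089, 8665, 9314 and 9031 at P3 and 8865, 8217, 8565 and 4474 at P7 on slide 1, and of 5683, 4833, 3498 and 4042 at P3 and 2354, 3114, 725 and 2227 at P7 on slide 2. On slide 2 every P7 array was below every P3 array, and the lowest value fell on the array of lowest signal. Its scaled change was 0.13 (SE 0.29, adjusted p = 0.674), with 0.39 and -0.12 on the slides, and its unscaled changes were -0.31 and -1.26. MiR-709, an abundant mouse miRNA with a largely nuclear location, had 1056, 1090.5, 1876 and 1441 at P3 and 1095, 742, 859 and 436 at P7 on slide 1, and 429, 622, 690.0 and 583 at P3 and 502, 462, 1022 and 897 at P7 on slide 2. Its groups overlapped on both slides, and its scaled change was 0.62 (SE 0.50, adjusted p = 0.294). On slide 2 its highest values were the 2 Ercc1-/- arrays at P7.

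The other members seen on all arrays were called higher at P7, and since none depended on the background filter their values show the split between slides most directly. MiR-1904, encoded within Pde4d, had signals of 360.1, 379, 310.4 and 278 at P3 and 369, 464, 434 and 167 at P7 on slide 1, where the passages overlapped. On slide 2 it had 34.2, 94.5, 66.0 and 55.9 at P3 and 202, 215, 308 and 186 at P7, with no overlap. Its scaled change was 1.89 (SE 0.47, adjusted p = 0.00911). By slide it was 0.72 and 3.07. MiR-689 had 177, 162, 169.6 and 135 at P3 and 229.8, 143, 200.5 and 164 at P7 on slide 1, and 48.4, 87.3, 106 and 70.7 at P3 and 195, 358, 321 and 293 at P7 on slide 2. It changed by 1.97 (SE 0.60, adjusted p = 0.0174), and again only slide 2 parted the passages in unscaled signal. MiR-690, encoded within Fgf12, had 280.5, 266, 221 and 180.0 at P3 and 196, 349, 282 and 86.4 at P7 on slide 1, and 27.7, 76.3, 68.2 and 40.6 at P3 and 132, 139, 90.7 and 128 at P7 on slide 2. Its change was 1.46 (SE 0.41, adjusted p = 0.0124), the smallest of the 16. With only the 57 miRNAs seen on all arrays in the fit, limma called these 3 of 5 members, against 61.4% of the 57 in either direction, and left miR-720 and miR-709 uncalled. The members' share there, 60%, was close to that over all 57.

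**Figure D3:**
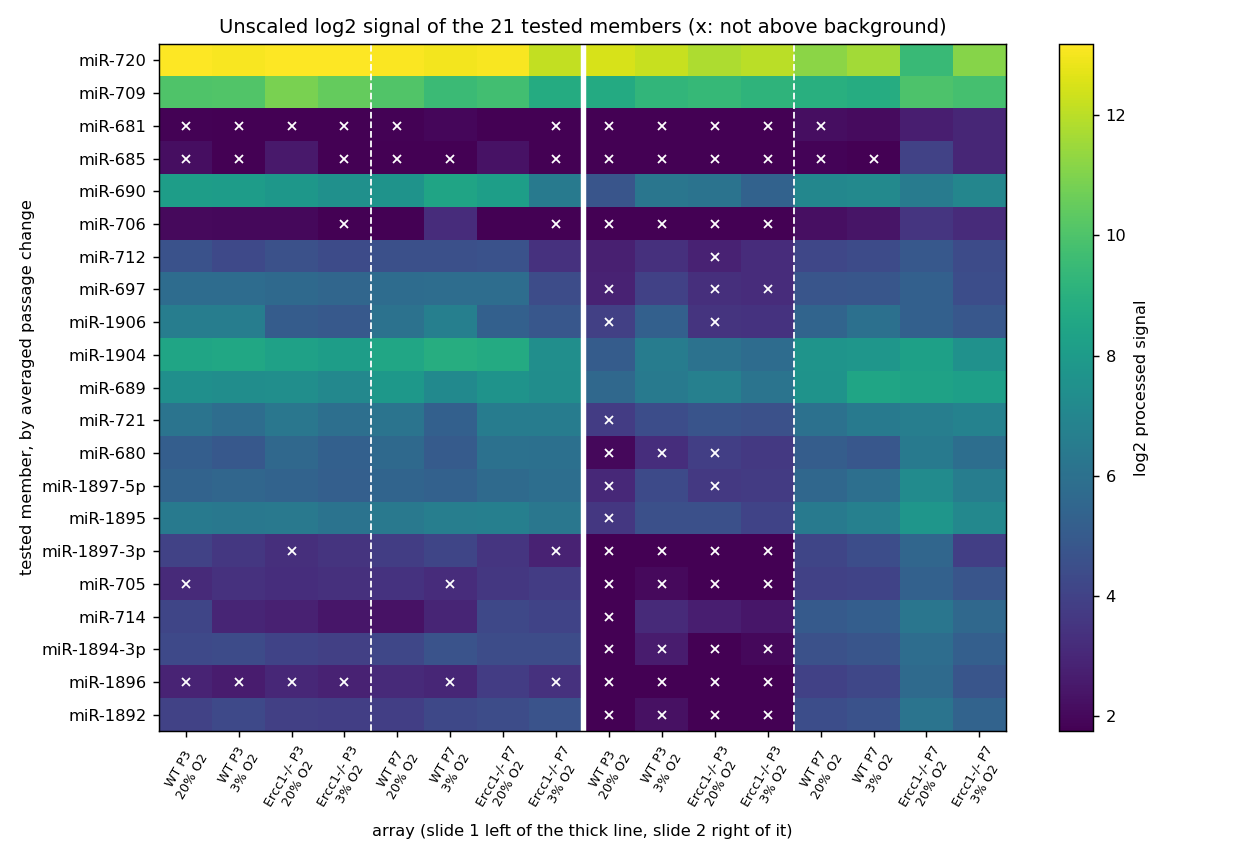
Unscaled log2 processed signal of the 21 tested members on all 16 arrays, with rows ordered by averaged passage change (lowest at the top), slide 1 left and slide 2 right of the thick line, and dashed lines between P3 and P7; a cross marks an array where the member was not above background. The dark, crossed block is P3 on slide 2, where the 8 members that passed through P7 groups alone were above background on none of the 4 arrays.

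The largest scaled changes belonged to dim members that were below background on slide 2 at P3. MiR-1892, miR-1896 and miR-1894-3p entered through P7 groups alone, as did miR-705, miR-1897-3p, miR-681, miR-685 and miR-706 below. The adjusted p-values of these members rest on the values that let them in, and they describe the members without testing them. MiR-1892 had signals of 16.3, 19.3, 15.1 and 14.6 at P3 and 14.6, 19.1, 21.4 and 25.9 at P7 on slide 1, and of 1.83, 4.87, 2.87 and 2.54 at P3 and 21.7, 25.1, 70.7 and 42.1 at P7 on slide 2. The second slide thus held both its lowest and its highest values, and its change was 2.86 (SE 0.71, adjusted p = 0.00911). MiR-1896 was above background on none of the 8 P3 arrays and on 6 P7 arrays. It had 7.47, 6.13, 8.10 and 7.14 at P3 and 8.78, 7.88, 13.7 and 10.5 at P7 on slide 1, and -0.915, 2.28, 0.973 and 1.98 at P3 and 15.4, 18.2, 51.7 and 27.4 at P7 on slide 2. Averaged over both slides it was at least 5.34-fold higher at P7 (adjusted p = 0.0109). For this bound each P3 array was set at its dimmest signal above background, or at the member's own signal where that was higher. By slide it was 2.26-fold on slide 1 and at least 12.6-fold on slide 2. MiR-1894-3p, encoded within Ppp1r10, had 19.6, 20.4, 16.4 and 15.2 at P3 and 18.5, 25.9, 21.5 and 21.1 at P7 on slide 1, and 0.457, 6.25, 2.30 and 4.04 at P3 and 24.1, 27.4, 57.5 and 37.4 at P7 on slide 2. It changed by 2.81 (SE 0.69, adjusted p = 0.00911), and by 0.98 on slide 1 alone. On slide 2, where no P3 array measured them, miR-1892 and miR-1894-3p have only a bound and were at least 16.4-fold and at least 13.7-fold higher at P7 with scaling.

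MiR-714, unlike the members just described, was above background on 3 of 4 slide 2 arrays at P3. It had signals of 17.5, 7.76, 7.03 and 5.48 at P3 and 4.99, 7.64, 18.7 and 16.5 at P7 on slide 1, and of 0.0340, 8.68, 6.62 and 5.43 at P3 and 31.4, 36.3, 76.5 and 49.2 at P7 on slide 2. On slide 1 its Ercc1-/- arrays were higher at P7 than at P3 and its WT arrays lower or level, and its averaged change was 2.73 (SE 0.92, adjusted p = 0.0259). Its 4 probes disagreed: on slide 2 their unscaled changes ran from 0.00 to 2.84. At P3 on that slide the dimmest probe had signals of -4.83 to -2.68 and the brightest of 7.43 to 29.4, and the values printed are averages over all 4. MiR-705, encoded within Rab11fip5, had 8.74, 10.4, 9.65 and 9.99 at P3 and 10.9, 9.33, 12.2 and 13.7 at P7 on slide 1, and 0.831, 4.14, 1.95 and 2.43 at P3 and 15.4, 16.5, 39.9 and 26.9 at P7 on slide 2. It was above background on no slide 2 array at P3 and changed by 2.64 (SE 0.70, adjusted p = 0.0112). MiR-1897-3p, from a hairpin within the long non-coding RNA Sox2ot, had 16, 12.4, 9.96 and 11 at P3 and 14.2, 17.8, 11.5 and 7.28 at P7 on slide 1, and 1.17, 2.30, 2.83 and 1.11 at P3 and 17.8, 21.9, 46.7 and 14.6 at P7 on slide 2. It too was below background on slide 2 at P3, changed by 2.52 (SE 0.73, adjusted p = 0.0145), and on slide 1 its unscaled change was -0.01.

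Of brighter members, miR-1895 and the other arm of the miR-1897 hairpin rose from low P3 signals on slide 2 to values above those of slide 1. MiR-1895 had signals of 89.0, 81.6, 83.8 and 68.0 at P3 and 82.6, 99.2, 102 and 79.0 at P7 on slide 1, and of 12.4, 23.2, 23.4 and 16.9 at P3 and 85.6, 106, 217 and 135 at P7 on slide 2. Its change was 2.40 (SE 0.62, adjusted p = 0.0108). MiR-1897-5p had 42.2, 46.1, 41.8 and 37.4 at P3 and 43.2, 39.9, 52.9 and 59.6 at P7 on slide 1, and 8.54, 19.9, 12.7 and 13.5 at P3 and 48.0, 61.5, 152 and 97.4 at P7 on slide 2, a change of 2.34 (SE 0.65, adjusted p = 0.0124). Both had their highest signal on the slide 2 array of Ercc1-/- cells at P7 in 20% O2, the array of lowest signal of all 16. On slide 2 that array was the highest for 15 of the 21 tested members, and the P3 array of WT cells in 20% O2 was the lowest for 17. The latter also had the lowest array signal of the P3 arrays on that slide, 6.94. No share over all tested miRNAs is at hand for these counts, so they are not shown to be particular to the members.

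MiR-680 and miR-721 of the lower range gave higher P7 values in Ercc1-/- than in WT cells on both slides. Among members with values printed for every array, miR-1892, miR-1896, miR-1897-5p, miR-705 and miR-714 did so too. The share of all tested miRNAs with this pattern was not counted, so it is not shown to be particular to these members. MiR-680 had signals of 36.0, 29.5, 48.6 and 38.9 at P3 and 50.2, 33.0, 63.9 and 63.6 at P7 on slide 1, and of 4.06, 9.42, 14.7 and 12.7 at P3 and 35.0, 28.8, 86.5 and 58.5 at P7 on slide 2. It had the smallest adjusted p of the set (change 2.32, SE 0.52, adjusted p = 0.00701), and the 2 P7 values of Ercc1-/- cells were the highest on each slide. MiR-721 had 72.2, 58.2, 77.7 and 60.7 at P3 and 71.1, 38.5, 93.2 and 95.5 at P7 on slide 1, and 13.7, 22, 26.7 and 24.3 at P3 and 64.1, 88.7, 101 and 112 at P7 on slide 2. Its change was 2.00 (SE 0.54, adjusted p = 0.0120).

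MiR-697 and miR-712 were flat on slide 1 apart from its dimmest array, that of Ercc1-/- cells at P7 in 3% O2. MiR-697, encoded within the splicing factor gene Sf3a3, had signals of 55.8, 56.2, 50.2 and 46.1 at P3 and 55.5, 57.2, 56.8 and 21 at P7 on slide 1, and of 7.17, 15.7, 9.83 and 9.25 at P3 and 27.5, 27.8, 38.3 and 22.1 at P7 on slide 2 (change 1.55, SE 0.45, adjusted p = 0.0145). MiR-712, the product of the ribosomal RNA precursor, had 25.1, 19.2, 23.8 and 20.9 at P3 and 23.6, 23.2, 24.9 and 10.6 at P7 on slide 1, and 6.87, 10.1, 7.21 and 9.14 at P3 and 18.1, 20.8, 29.9 and 20.4 at P7 on slide 2 (change 1.53, SE 0.52, adjusted p = 0.0271). Its 4 probes disagreed: on slide 2 their unscaled changes ran from 0.36 to 2.58, and the 2 probes near background at P3 rose most. Probes of one member differed by over 1 in this change in 6 of the 21, and in 16 of the 21 every probe was higher at P7 on slide 2.

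The remaining 3 tested members had low signals averaged over their probes and were not called. MiR-681, encoded within Cdkl1 and with the third lowest averaged change, had signals of 3.49, 3.21, 2.36 and 0.820 at P3 and 3.57, 3.86, 2.60 and 0.284 at P7 on slide 1, and of -3.72, -0.921, -2.60 and -1.29 at P3 and 4.51, 4.30, 6.54 and 7.98 at P7 on slide 2. It was above background on no P3 array and on 5 P7 arrays. Averaged over both slides it was at least 1.68-fold higher at P7 (adjusted p = 0.0957), and the block fit gave an adjusted p of 0.0424. By slide its scaled change was 0 on slide 1, and on slide 2 it was at least 2.84-fold higher. MiR-706 was above background on 10 arrays and miR-685 on 4. On slide 2 at P7 the brightest probe of miR-706 had signals of 20.1 to 43.2, while another had -1.95 to 1.33. Averaged over probes, miR-706 ranged from -0.661 to 11.5 over the 16 arrays and miR-685 from -3.56 to 16.1. Their changes were 1.5 (SE 0.64, adjusted p = 0.0624) for miR-706 and 1.22 (SE 0.65, adjusted p = 0.125) for miR-685. With the block miR-706 was also called (adjusted p = 0.0310) and miR-685 was not (adjusted p = 0.0748).

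Within single groups no member was called at P7 against P3. In WT cells the tested members' median change was 1.17 in 20% O2, 0.00 on slide 1 and 2.16 on slide 2, and 1.22 in 3% O2, 0.39 and 2.28 on the slides. Limma called 0 members in either, against 1.28% and 0% of all tested, with 0 members at an unadjusted p under 0.05 in both. In Ercc1-/- cells the median was 2.75 in 20% O2, with 0.88 on slide 1 and 4.93 on slide 2, and 2.42 in 3% O2, with 1.68 and 3.34. Limma called 0 members there too, against 1.28% and 0% of all tested, but 15 members in 20% O2 and 11 in 3% O2 were higher at an unadjusted p under 0.05 and 0 lower. Of all tested, 19.1% and 12.8% were higher at that level and 17.4% and 18.7% lower. The methods' own test, at an unadjusted p under 0.05 and a 2-fold change, passed 0, 1, 0 and 1 members in the 4 comparisons, beside 2, 13, 4 and 21 of all tested, and 0 in each after Benjamini-Hochberg adjustment. With the slide as a block limma called 1 member, miR-721, in Ercc1-/- cells in 3% O2 (change 2.96, adjusted p = 0.0494), against 18.3% of all tested. Without the slide 1 array of Ercc1-/- cells at P7 in 20% O2, 20 members were called in that comparison, against 76.6% of all tested, with the array of lowest signal as the lone P7 sample and assumed to vary like the other groups.

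**Figure D4:**
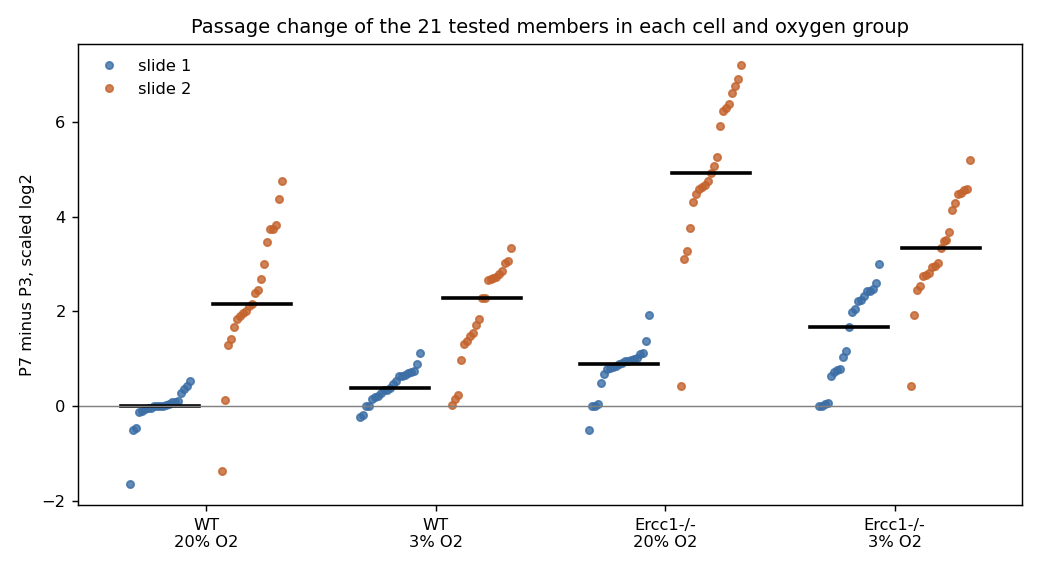
Scaled passage change, P7 minus P3 in log2, of each of the 21 tested members (points) on slide 1 and slide 2 in the 4 cell and oxygen groups; bars are medians. Slide 2 lies above slide 1 in every group, with medians of 2.16, 2.28, 4.93 and 3.34 against 0.00, 0.39, 0.88 and 1.68.

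Unscaled, the slide 2 medians of the tested members were 2.19 and 1.61 in WT cells in 20% and 3% O2 and 2.22 and 2.05 in Ercc1-/- cells. On slide 1 they were -0.04, 0.10, 0.26 and 0.00. The difference between genotypes in the passage change was tested. Ercc1-/- minus WT, its median over the tested members was 1.48 with scaling and 0.30 without. Limma called 0 members for this difference, against 0% of all tested, with 0 members at an unadjusted p under 0.05, and without that same slide 1 array 2 were called, against 6.38%. For the passage change in 20% minus that in 3% O2 the median was 0.26, from -0.56 on slide 1 and 1.17 on slide 2, with 0 members called, against 0% of all tested, and 0 at an unadjusted p under 0.05.

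No member was called for genotype at a fixed passage, and the largest difference at P3 was that of miR-1906. This miRNA, which lies within Meg3 and has a second copy on the X chromosome, had signals at P3 of 98.1 and 95.9 in WT cells and 33.4 and 31.3 in Ercc1-/- cells on slide 1, in 20% and 3% O2. On slide 2 the P3 values were 15.1 and 38.8 in WT cells and 11.3 and 10.7 in Ercc1-/- cells. At P7 it had 66.6 and 103 in WT and 37.9 and 29.5 in Ercc1-/- cells on slide 1, and 43.4 and 62.9 in WT and 38.6 and 29.3 in Ercc1-/- cells on slide 2. On each slide and at each passage both unscaled Ercc1-/- values were below both WT values. At P3 the scaled log2 signal was 5.47 ± 0.24 and 5.31 ± 0.46 (SD, n = 2) in WT cells in 20% and 3% O2, and 3.50 ± 0.21 and 3.54 ± 0.16 (SD, n = 2) in Ercc1-/- cells. The difference at P3 was -1.87 (SE 0.65, adjusted p = 0.369), -1.99 and -1.76 on the slides. Fitted on the 8 P3 arrays alone, whose spread was smaller, it had an SE of 0.20 and an adjusted p of 0.0164 by limma. In that fit 1 of 21 members was called, or 4.76%, close to the 4.26% of all tested. At P7 it was -0.13 with scaling (adjusted p = 0.953), with -0.72 and 0.46 on the slides, and -0.97 without. MiR-1906 also rose with passage (change 1.55, SE 0.46, adjusted p = 0.0162), by 0.61 on slide 1 and 2.50 on slide 2.

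Other genotype and oxygen contrasts held no call in the set. Limma called 0 members for Ercc1-/- minus WT at P3, against 1.28% of all tested, with miR-1906 as the 1 member at an unadjusted p under 0.05, and 0 at P7, against 0.851%, again with 1 member, miR-680, at an unadjusted p under 0.05. The tested members' median was -0.44 at P3 and 1.06 at P7. Leaving out the slide 1 array of Ercc1-/- cells at P7 in 20% O2 gave 10 calls for genotype at P7, against 20.4% of all tested. For 20% minus 3% O2 the median was 0.06 at P3 and 0.27 at P7, and limma called 0 members at either passage, against 0.426% and 0.851% of all tested, with 0 at an unadjusted p under 0.05. At P7 the oxygen median was -0.49 on slide 1 and 1.27 on slide 2.

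The members' levels were also set against array signal. On slide 1 the tested members' mean unscaled log2 signal stayed between 5.14 and 5.61 over all 8 arrays while array signal ran from 7.86 to 9.80. On slide 2 it was 3.55, 4.23, 3.97 and 3.86 at P3 and 5.35, 5.55, 6.25 and 5.83 at P7, highest on the array of lowest signal. The 214 other tested miRNAs followed array signal closely, with slopes of 1.19 and 0.85 log2 units per unit on the slides. They include the 52 miRNAs that define array signal, so these slopes are partly built in. The tested members had slopes of 0.08 and -0.62. The 8 members that entered through P7 groups alone had to be high on P7 arrays, and array signal averaged lower at P7, so the members' slopes are a description and no test. The 5 members seen on every array, which the filter could not select, had slopes of 0.51 and -0.13. For the members the correlation over the 8 arrays was r = 0.29 on slide 1 (exact permutation p = 0.502, adjusted p = 0.669) and r = -0.65 on slide 2 (exact permutation p = 0.0684, adjusted p = 0.274). Spearman's rho was -0.12 (exact permutation p = 0.793) and -0.52 (exact permutation p = 0.197, adjusted p = 0.393), with 4 two-sided tests in the family. Without the 2 arrays farthest from the median signal r was -0.79 on slide 1 (exact permutation p = 0.0806) and -0.41 on slide 2 (exact permutation p = 0.369), so the sign on slide 1 rested on those arrays.

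**Figure D5:**
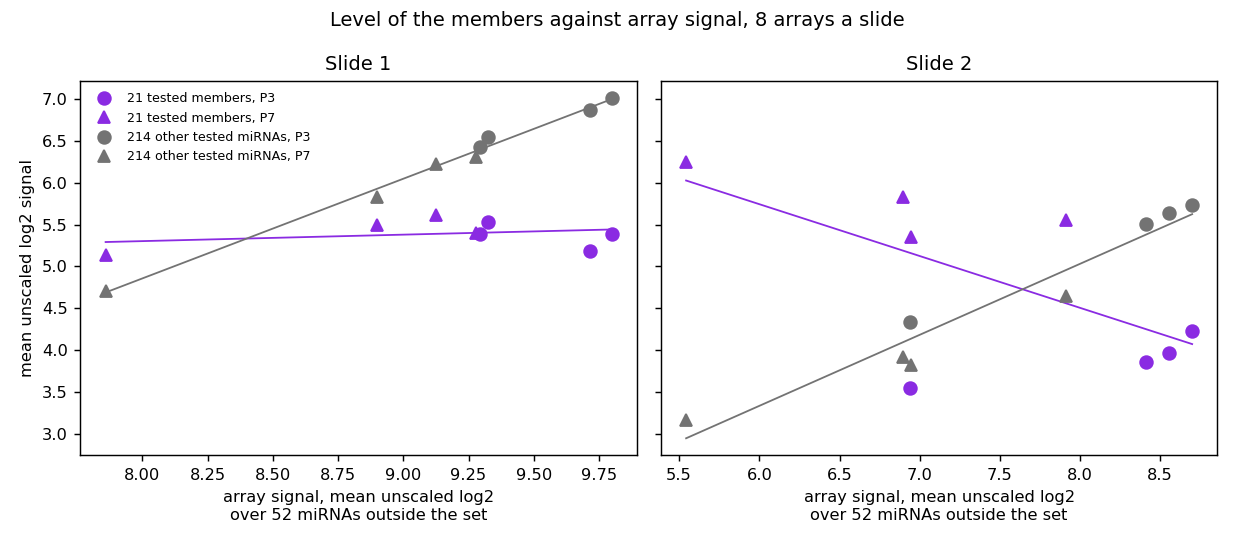
Mean unscaled log2 signal of the 21 tested members and of the 214 other tested miRNAs against array signal on slide 1 (left) and slide 2 (right); each point is an array, circles are P3, triangles P7, and lines are least-squares fits. The members stay near 5.4 on slide 1, and on slide 2 their P7 points lie above all their P3 points.

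Passage moved together with array signal, and 4 arrays for each slide and passage are too few for a correlation within passage. The part of each in the members' values was not tested. Singly, 20 of the 21 tested members had a negative slope against array signal on slide 2, the exception being miR-720 with 0.65, and 12 of 21 had one on slide 1. Among the other tested miRNAs, which include those that define array signal, 27 of 214 had a negative slope on slide 2 and 14 on slide 1. On slide 1 miR-709 had the steepest slope of the set, 1.02, and miR-714 the most negative, -0.67. On slide 2 miR-1892 was most negative, with -1.23.

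As a share of the summed signal of all 611 mouse miRNAs, the 60 members without miR-720 made up 1.68% to 2.40% at P3 and 2.06% to 3.72% at P7 on slide 1. On slide 2 their share was 1.62% to 2.68% at P3 and 4.31% to 8.77% at P7, with no overlap. With miR-720 the ranges on slide 2 were 6.91% to 21.4% at P3 and 10.9% to 14.7% at P7 and overlapped. P-values here measure the spread between arrays of 2 slides, and the number of arrays limits their precision. The averaged passage comparison took the arrays of a passage as independent. Yet the difference between slides was shared among groups of the same passage (r from 0.48 to 0.87). Its SEs and adjusted p-values can therefore be too small, and the slide block does not remove this.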

How the data were processed

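Total RNA was labelled with Cy3 and hybridised to 1-colour Agilent mouse miRNA arrays, 16 in all. Per the file headers, the authors' scans were read with Feature Extraction 10.7.1.1, and the deposited intensity values are its background-subtracted processed signals per spot. These were used here without outlier spots, averaged over the spots of a probe and then over the probes of a miRNA. The authors' series table, which holds intensities per miRNA, served as an alternative and was put on the log2 scale in the same way. Arrays were scaled to equal mean log2 signal over the 57 mouse miRNAs above background on all arrays, floored at 2.82, and put on the log2 scale. Of 611 mouse miRNAs 235 were tested, those that passed background in both replicates of some group. All 11 comparisons came from 1 fit with limma 3.58.1 (R 4.3.3) with 1 mean per group. P-values were adjusted by Benjamini-Hochberg within each comparison over all 235, and called at 0.05. Correlations used exact permutation in SciPy 1.17.1. The fitting step was tested on simulated data with independent noise on each array and no difference between slides. That test does not cover the slide difference shared within a passage in these data. The values printed for every array were chosen for members above background on all 16 arrays, called in any comparison, in the study's passage table, or among the 3 highest and 3 lowest averaged passage changes. The members and lists were chosen with earlier results of these data known. MiRNA arrays hold no probe for Ercc1, so the genotype labels were not checked.

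Replicate numbers were checked as pairs: the difference between slides 1 and 2 correlated between groups of the same passage (r from 0.48 to 0.87 over the tested miRNAs) but not between passages (r from -0.34 to 0.37), and the main comparison has no block. Since every group has 1 array on each slide, values are also given by slide. In place of a mean signal column, which the files used here do not hold, normexp correction took the median signal and background with an offset of 50.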

Additional observations from a re-analysis of the deposited data

How the results depend on the processing

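With all 21 tested members higher in the averaged passage comparison, the number called moved most with scaling, background correction and the filter. The count of 16 (54.9% of all tested were called in either direction) became 1 with no scaling (18.7%), 12 with no scaling and the replicate block (65.1%, added after seeing the data), 5 with normexp (14.9%), 2 with no filter on 60 members (55 of 611 in all), and 3 of 5 members seen on every array when those miRNAs alone were fitted (61.4%); it was 12 to 19 under the other scalings, floor, signal summary, series table and blocks, and 14 to 20 when single arrays were left out. With the replicate block 18 were called here (68.1% of all tested) and 1 in Ercc1-/- cells in 3% O2 (18.3%), and the block changed no other count of members. The averaged median of 1.97 was 1.05 with no scaling, 0.75 with normexp (0.33 over all tested), 0.26 with no filter and 1.53 to 2.43 without single arrays. The Ercc1-/- median in 3% O2, 2.42, was 0.76 with no scaling, with or without the block, 1.11 with normexp and 0.52 with no filter. That in 20% O2, 2.75, was 1.09, 1.26 and 0.72 under these. The WT medians, 1.17 in 20% and 1.22 in 3% O2, were 1.10 and 0.74 with no scaling, 0.18 and 0.51 with normexp and 0 in both with no filter. Leaving out single arrays moved the Ercc1-/- median in 3% O2 between 1.79 and 3.35, that in 20% O2 between 1.14 and 4.60, and the WT medians between 0.05 and 2.10 in 20% O2 and between 0.79 and 1.78 in 3% O2; calls ranged from 0 to 20 in Ercc1-/- cells in 20% O2, from 0 to 10 for genotype at P7 and from 0 to 2 for the difference of passage changes between genotypes. Genotype at P3 had 1 call (miR-1906) with only the arrays compared, against 4.26% of all tested. Under the software's own call 9 members in place of 5 were detected on all arrays and 33 in place of 32 on any.

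MiR-720 turned to -0.79 with no scaling (block or not), -0.38 when scaled by all miRNAs, -0.075 with normexp, -0.36 with positive controls as the scale (added after seeing the data) and -0.077 without the slide 1 array of WT P3 cells in 20% O2 (up to 0.34 without other single arrays); miR-709 turned to -0.30 with no scaling. With the software's total gene signal miR-712 turned to -1.93 and miR-714 to -0.12. For these the total was 582 to 2494 and 2.43 to 2504 at P3, while the mean over their probes was at most 25.1 and 17.5. The cause was not tested. The relation to array signal over the 5 members seen on all arrays had r = 0.84 on slide 1 and -0.28 on slide 2. The median of all tested miRNAs moved from -0.39 to -1.14 unscaled, -0.85 when scaled by all miRNAs and 0.33 with normexp. Signal near background limits the 8 members that passed through P7 groups alone.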
